A study of Drosophila melanogaster with 4 samples.

Results

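Glycolysis is the cytosolic pathway that splits glucose into pyruvate and yields ATP and NADH. Its first steps spend ATP to trap and cleave the sugar, and its later steps recover ATP from the resulting three-carbon units. In the fly brain, as in other brains, both neurons and glia express these enzymes, and glia are known to break down sugar and pass products on to neurons. The transcripts of 10 enzymes, from hexokinase to pyruvate kinase (Hex-A, Pgi, Pfk, Ald1, Tpi, Gapdh1, Gapdh2, Pgk, Eno and PyK), were examined for association with LARK, an RNA-binding protein. Members were taken by gene name, as every probe set that the platform annotation assigns to a listed gene, with control probe sets left out. A probe set of their own was found for 7 of the 10 genes, 1 each, among 10843 genes with a named probe set on the array. Tpi, triose phosphate isomerase, was matched only by a probe set shared with another gene, and no probe set was matched to Gapdh2 or PyK.

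The RNA came from hand-dissected brains of Canton-S wild-type Drosophila melanogaster at the pharate adult stage, just before the fly emerges from the pupal case. Each of 2 experiments used lysate pooled from many brains. Before precipitation some lysate was set aside for total RNA, and an affinity-purified antibody against LARK then pulled down the protein with its bound RNA (LARK IP) under mild washing. There were thus 2 arrays of LARK IP and 2 of total RNA, paired by lysate and described by the submitters as biological replicates. No treatment or mutation separates the groups, and no mock precipitation was analysed here. In a signal from pooled tissue, fewer cells of a type and less RNA per cell cannot be told apart. IP and total RNA of a replicate, however, drew on the same lysate.

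The labelled tissue was checked against marker genes. Transcripts of the neuronal proteins elav, fne and futsch and of the glial proteins repo, alrm, nrv2 and Gs2 were bright enough to be tested, meaning in the top 25% by mean log2 signal. In all, 5 of 8 pan-neuronal and 7 of 11 glial genes were, against 2 of 7 fat body, 3 of 11 muscle and 5 of 10 haemocyte genes. Over all genes with a named probe set, 2884 of 10843 were. That mean takes in the IP arrays, so the counts are no check of total RNA alone. In total RNA elav (1.5) and fne (5.1) were below the 75th percentile of the array in replicate 1, and nSyb (1.4) in replicate 2. Probe sets of the synaptic protein brp were too dim to be tested. Photoreceptor transcripts (6 of 7 genes tested) were also detected. No marker was listed at 0. Median signals of the arrays were 2.7 to 2.8.

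Among the 7 measured glycolytic transcripts, those of aldolase and hexokinase A stood above total RNA in LARK IP in both experiments, and the 5 others differed between IP and total RNA of either experiment by less than the total RNA arrays differed from each other. Ald1 encodes aldolase, which cleaves fructose 1,6-bisphosphate into a pair of trioses. In LARK IP its signals were 130.8 and 193.3 in replicates 1 and 2, and in total RNA 10.2 and 21.6. Both IP signals lay far above both total RNA signals, and even the lowest of the 4 possible IP to total RNA ratios, IP 1 over total RNA 2, was 6.06. Within replicates the plain ratios were 12.8 and 8.95. On the scale of log2(signal + 0.8), the mean log2 ratio was 3.35 ± 0.33 (SD, n = 2), a 10.2-fold difference with a 95% interval of 6.96 to 14.9, and it passed the test in limma (adjusted p = 0.000318). The Ald1 ratio ranked 3 of 3492 probe sets tested.

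Hex-A encodes hexokinase A, the enzyme that phosphorylates glucose on its entry into the pathway. Its signals were 10.9 and 16.2 in LARK IP against 2.9 and 3.2 in total RNA. The groups did not overlap, but both total RNA signals were dim, meaning below the 75th percentile of their arrays. The ratio is therefore a bound. With the dim arrays set to that percentile, the mean over the replicates on log2(signal + 0.8) was at least 1.99-fold higher in IP. The plain ratios were then 1.76 and 2.53. That bound does not take in the spread between replicates. As measured, the plain ratios were 3.76 and 5.06 and the mean log2 ratio was 1.87 ± 0.30 (SD, n = 2; 95% interval 0.78 to 2.97), rank 56 of 3492, which did not pass in limma (adjusted p = 0.0961). With 4 times the pseudocount Hex-A did pass (log2 ratio 1.40, adjusted p = 0.0455). The probe set entered the test through its IP signals, since its mean log2 signal was 3.82 in IP and 1.94 in total RNA and the lowest mean tested was 2.57, so its presence among the tested members is no evidence of a difference.

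**Figure D1:**
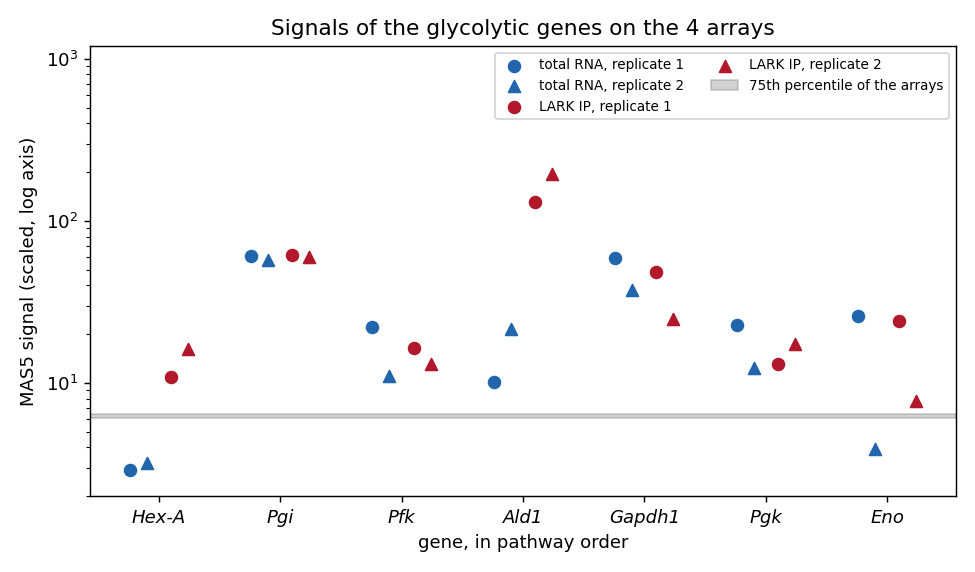
MAS5 signal on a log axis of each glycolytic gene on the 4 arrays, in pathway order, with total RNA in blue, LARK IP in red, circles for replicate 1 and triangles for replicate 2; the grey band marks the 75th percentile of the arrays (6.1 to 6.4). Ald1 and Hex-A have both red points above both blue ones, while Pgi stays between 57.0 and 61.9 on every array.

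In all, 1 of the 7 members, Ald1, was higher in LARK IP at an adjusted p under 0.05, and 0 were lower. Over all probe sets tested 2.69% were called higher and 0.172% lower in limma, so that 1 call among 7 is a small count to read. At an unadjusted p under 0.05, Ald1 was higher and no member was lower (unadjusted p = 2.7e-07 in limma), where 7.82% of all probe sets tested were higher and 4.18% lower. Hex-A also had an unadjusted p under 0.05 (0.0038 in limma). It is not counted beside that share, since it entered the test through its IP signals and its total RNA signals are dim. A plain ratio of at least 2 in both replicates was reached by Ald1 and Hex-A, 2 of the 6 members whose IP signals were bright, meaning in the top 15% of their arrays, in both experiments. Over all such probe sets the share was 8.32%. For Hex-A the total RNA signals behind this are dim, and with dim signals set to the 75th percentile of their array, an alternative chosen after seeing the data, its ratios were 1.76 and 2.53. The count was then 1 of 6, Ald1, against 6.9% of all such probe sets. In the other direction the count was 0 of 5, with a share of 1.78% over all. The call of Ald1 depends on the fit. Without the replicate block its adjusted p in limma was 0.394, without the variance trend 0.179, and with any 1 array left out it was at least 0.283, while its log2 ratio stayed between 2.83 and 3.86.

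The remaining steps before the cleavage of the sugar showed no such enrichment. Pgi encodes glucose-6-phosphate isomerase, which turns glucose 6-phosphate into fructose 6-phosphate. Its signals were 61.9 and 60.0 in LARK IP against 60.8 and 57.0 in total RNA, the most even values of any member. The log2 ratio was 0.05 ± 0.03 (SD, n = 2), and its 95% interval of -0.45 to 0.55 leaves room for a change of up to 1.46-fold upward. Under quantile normalization the sign turned, to -0.15. Pfk encodes phosphofructokinase, the main control point of the pathway. It had 16.4 and 13.0 in IP, with 22.2 and 11.1 in total RNA. The ratio was below 1 in replicate 1 and above 1 in replicate 2 (0.739 and 1.17), and the total RNA arrays differed from each other by 2-fold. The mean log2 ratio of Pfk was -0.10 ± 0.45 (95% interval -0.87 to 0.67).

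Past the cleavage, the 3 measured enzymes were those of the triose stage. Gapdh1 encodes glyceraldehyde-3-phosphate dehydrogenase, which makes the NADH of the pathway. Its signals of 48.2 and 24.8 in LARK IP lay below the 58.9 and 37.3 of total RNA of the same replicate, with plain ratios of 0.818 and 0.665. It was the single member lower in both replicates, but the groups overlapped, and the mean log2 ratio of -0.43 ± 0.20 did not pass in limma (95% interval -0.98 to 0.12, adjusted p = 0.538). Gapdh2 encodes a closely related enzyme, and whether its transcript also binds the Gapdh1 probes was not tested.

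Pgk encodes phosphoglycerate kinase, the first enzyme to return ATP. Its signals were 13.1 and 17.4 in LARK IP against 22.8 and 12.4 in total RNA, so that IP was lower in replicate 1 and higher in replicate 2 (ratios 0.575 and 1.40). Eno encodes enolase, which forms phosphoenolpyruvate. In IP it read 24 and 7.7, and in total RNA 25.8 and 3.9, the last of which was dim. Eno therefore varied far more between experiments than between IP and total RNA: at least 4.03-fold within total RNA, with the dim signal set to the 75th percentile of its array, and 3.12-fold within IP, both lower in replicate 2. Neither gene passed: the log2 ratios were -0.15 ± 0.87 for Pgk (95% interval -1.01 to 0.70) and 0.38 ± 0.68 for Eno (95% interval -0.51 to 1.26), or 0.07 with its dim signal set to that percentile.

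**Figure D2:**
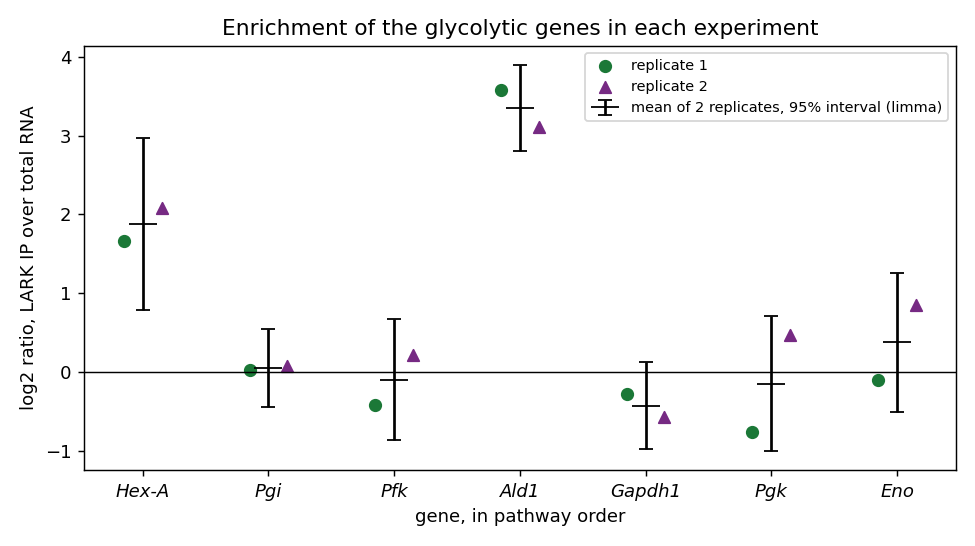
Log2 ratio of LARK IP over total RNA, on log2(signal + 0.8), for each glycolytic gene in replicate 1 (circles) and replicate 2 (triangles), with the mean and its 95% interval from limma. The intervals of Ald1 (2.80 to 3.90) and Hex-A (0.78 to 2.97) lie above 0, and those of the other 5 genes include 0.

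The members thus did not move as one group. Their log2 ratios ran from -0.43 for Gapdh1 to 3.35 for Ald1, with a median of 0.05 over the 7 genes against -0.04 over all 2884 genes tested. By replicate the median of the members was -0.10 in replicate 1 and 0.46 in replicate 2. In pathway order, the median was 0.96 for the 4 genes from Hex-A to Ald1, between the near-zero values of Pgi and Pfk and the high ones of Hex-A and Ald1, and -0.15 for the 3 genes from Gapdh1 to Eno. With Hex-A at its bound the former was 0.52. Because Hex-A entered the test through its IP signals, the former median leans towards IP. The gap between these medians is thus no evidence of a difference between the stages. Without Ald1 and Hex-A the median of the members was -0.10. In both replicates 3 of the 7 were higher in IP (Hex-A, Pgi and Ald1) and 1 lower (Gapdh1), where 27.1% and 30.7% of all probe sets tested were. Both IP signals exceeded both total RNA signals for Ald1 and Hex-A, as for 15.4% of all probe sets tested, and for no member did both fall below, as for 17.4%. Hex-A is named in these counts but is not to be read beside the shares of 27.1% and 15.4%. It entered the test through its IP signals, and its total RNA signals are dim.

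As a measure of the noise, the median absolute log2 difference over all probe sets tested was 0.51 for the pair of IP arrays and 0.52 for the pair of total RNA arrays. Between IP and total RNA of the same replicate it was 0.43 in both replicates. On the log2 scale the Ald1 signals differed by 0.56 within IP and by 1.03 within total RNA, both smaller than the lower of its ratios in the replicates (3.12). The same reading is not given for Hex-A, whose total RNA signals are dim. For Pgi, Pfk, Gapdh1, Pgk and Eno the total RNA arrays differed by more than IP differed from total RNA in either replicate.

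**Figure D3:**
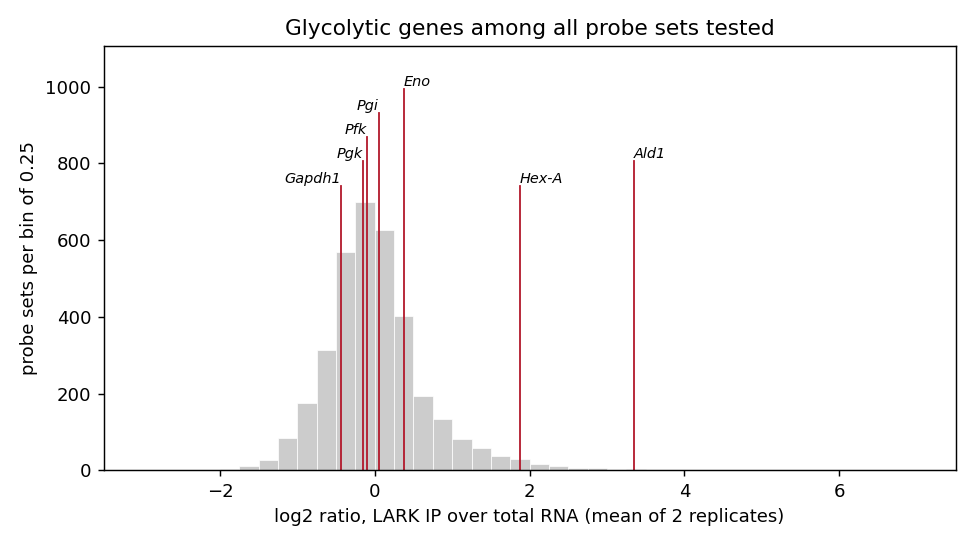
Number of probe sets per bin of 0.25 in the mean log2 ratio of LARK IP over total RNA, for the 3492 probe sets tested, with red lines at the glycolytic genes. From Gapdh1 at -0.43 to Eno at 0.38, 5 genes lie in the body of the distribution, and Hex-A at 1.87 and Ald1 at 3.35 lie in its upper tail.

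Pan-neuronal markers were mixed, with the larger signals in LARK IP. The summed signal of the 5 pan-neuronal markers tested was 84.4 and 159.0 in IP, with 32.2 and 99.4 in total RNA, higher in IP of each replicate. The filter took in the IP signals, and in total RNA elav, fne and nSyb were each dim in 1 replicate. A sum over markers kept in this way can lean towards IP. Of the 5, 3 (elav, fne and futsch) were higher in both replicates and 1, Rbp9, was lower in both. Over all probe sets tested 27.1% and 30.7% were. Only futsch of the 5 passed in limma (adjusted p = 0.0470), where 2.69% of all probe sets tested were called higher. The groups of its tested probe set overlapped, with 45.3 and 95.9 in IP and 10.6 and 52.3 in total RNA. Its total RNA arrays differed by 4.93-fold, more than IP differed from total RNA in either replicate (4.27 and 1.83). The other futsch probe sets were dim on every array. Sums of the 7 glial markers were 344.7 and 239.3 against 354.4 and 206.5, and those of the 3 muscle markers 56.0 and 29.1 against 46.3 and 27.9. Photoreceptor markers summed to 134.4 and 193.6 against 159.1 and 284.2. Of these, 5 of 6 were lower in both replicates, where 30.7% of all probe sets tested were, and 0 passed in limma. The fat body sums (2 genes) were 17.2 and 14.2 against 14.5 and 23.5, and the haemocyte sums (5 genes) 44.7 and 38.4 against 56.5 and 40. The part of the cell types in the ratios of Ald1 and Hex-A was not tested.

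The array also carries control probe sets along the GAPDH transcript, which are not among the members. The 3′ control read 91.1 and 48.5 in LARK IP against 109.6 and 51.4 in total RNA, lower in IP in both replicates, as Gapdh1 was. The middle control read 11 and 1.9 against 19.2 and 7.3, and the 5′ control 4.9 and 0.2 against 11.5 and 5.8, where both IP signals and that of total RNA 2 were dim. The 3′ to 5′ ratio is a sign of how complete the labelled RNA is. For GAPDH it was at least 14.9 in IP against 9.53 in total RNA in replicate 1, while in replicate 2 only bounds can be given, at least 7.95 and at least 8.03, which have no order. For the eIF-4a control, with no dim signal at its ends, it was 63.2 and 56.1 in IP against 37.1 and 36.0, higher in IP in both replicates. The 5′ signals of the actin control were dim on all 4 arrays, and no ratio is given. The part of RNA completeness in the members' ratios was not tested.

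Genes that feed, branch from or reverse glycolysis gave no further call. Of 38 listed genes, 30 had a probe set and 15 were bright enough to be tested, with a median log2 ratio of 0.06. In limma 0 of these rose and 0 fell, where 2.69% and 0.172% of all probe sets tested did. At an unadjusted p under 0.05 there were 0 probe sets, against 7.82% higher and 4.18% lower over all. With so few genes, counts of 0 are too small to set apart from those shares. None was at least 2-fold changed in both replicates with a bright numerator. Pglym78, the phosphoglycerate mutase between Pgk and Eno in the pathway, had signals of 79.6 and 22.7 in LARK IP against 46.1 and 28.6 in total RNA, up in one replicate and down in the other. Pfrx, which makes and degrades an activator of phosphofructokinase, read 21.0 and 18.6 in IP against 34.6 and 23.5. Both IP signals lay below both total RNA signals, as for 17.4% of all probe sets tested, without passing in limma (log2 ratio -0.51, adjusted p = 0.531). Gpdh1, the glycerol-3-phosphate dehydrogenase that draws off a triose, had 9.1 and 1.2 in IP against 11.8 and 7.0. The second IP signal is dim, and the mean log2 ratio was -1.16 ± 1.14 as measured and -0.26 with that signal set to the 75th percentile of its array.

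Men-b, a malic enzyme, had 2 probe sets. One had signals of 290.4 and 349.5 in LARK IP, above the 257.6 and 263.4 of total RNA, without passing in limma (mean log2 ratio 0.29 ± 0.17, adjusted p = 0.649). The other was dim on 1 IP array and did not pass either (adjusted p = 0.655 in limma). Pepck1, the gluconeogenic phosphoenolpyruvate carboxykinase, read 12.0 and 10.3 against 8.7 and 6.9, groups that did not overlap but did not pass either (adjusted p = 0.718 in limma). Both IP signals exceeded both total RNA signals for 15.4% of all probe sets tested, as for Pepck1 and the brighter Men-b probe set. Glycogen phosphorylase (Glyp) had 15.2 and 12.4 against 15 and 4.8, the last of which is dim. The other hexokinase genes with a probe set, Hex-C and Hex-t2, were dim on all 4 arrays, at 0.2 to 2.3, so no ratio is given.

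**Figure D4:**
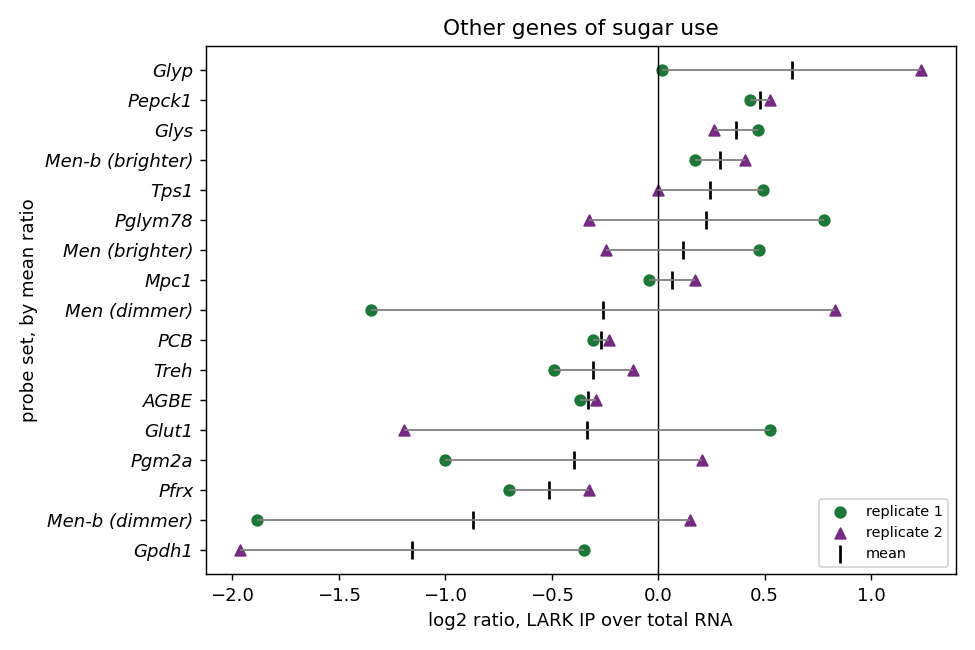
Log2 ratio of LARK IP over total RNA, on log2(signal + 0.8), for the 17 tested probe sets of 15 other genes of sugar use, in replicate 1 (circles) and replicate 2 (triangles), with the mean as a bar. Means run from -1.16 for Gpdh1 to 0.63 for Glyp, each of which has a dim signal on 1 array.

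The genes most like Ald1 over the 4 arrays were sought by the Euclidean distance of log2 signals centred on their mean. Nearest was 14-3-3zeta, a phosphoprotein-binding adaptor (distance 0.51), with signals of 545.8 and 1002.2 in LARK IP against 61.9 and 150.5 in total RNA. As with Ald1, both IP signals lay far above both total RNA signals and replicate 2 was the brighter one in each group. CG14191 (0.78), CG32647 (0.79), the seizure gene jus (0.82) and TP53INP (0.90) followed. In total RNA, CG14191 was dim in both replicates (1.3 and 1.2), and CG32647 (2.0) and TP53INP (4.7) were dim in replicate 1. Their nearness to Ald1 thus rests in part on dim signals. For Hex-A the nearest was Shaw, a voltage-gated potassium channel (distance 0.15), whose IP signals were 11.8 and 18.4 and whose total RNA signals, dim like those of Hex-A, were 3.8 and 3.9. The next were l(3)L1231 (0.29), Ae2, an anion exchanger (0.39), Con, a leucine-rich repeat adhesion protein (0.44), and rgn (0.44). Of these, Con was dim in total RNA of both replicates (5.7 and 5.4) and l(3)L1231 in that of replicate 1 (5.1). With 4 arrays and 3492 probe sets, near profiles are to be found for many genes, and these are given as a description.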

How the data were processed

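RNA was measured on 4 Affymetrix Drosophila Genome Arrays, 1 per sample. The deposited signal intensity of each probe set was computed by the authors with MAS5. By the study's methods all arrays were brought to a common target intensity with the software's defaults, and the 2% trimmed mean was 5.00 on all 4, so a value is relative to its own array. Detection calls were not used. The study's methods state that the same quantity of RNA was labelled for both sample types, so ratios show shares of RNA and not amounts precipitated.

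Of 13966 probe sets that were no control, the platform annotation gave 1 gene for 12442, several for 327 and none for 1197, and comparison with RefSeq changed 0 symbols. All ratios other than plain ones used log2(signal + 0.8), the pseudocount being the median of the arrays' 25th percentiles, which understates changes of low signals. The groups were compared in limma 3.58.1 (R 4.3.3), with the replicate as a blocking factor, a mean-variance trend and Benjamini-Hochberg adjustment over the 3492 probe sets in the top 25% by mean log2 signal. Samples that share a number came from 1 lysate and were hybridised and scanned on the same day, so replicate and batch cannot be told apart. Their deviations correlated (Pearson's r 0.36 across probe sets, which are not independent). Each probe set has 1 residual degree of freedom, and 7.84 more come from the other probe sets. An exact two-sided permutation test of 2 arrays against 2 cannot go below p = 0.33. Tested on simulated data, the fit recovered most large changes in most runs. In most runs, however, the share of false calls exceeded the nominal rate, so the adjusted p may be too small. The simulated variances were shuffled across probe sets, so the simulation did not keep the mean-variance trend of the data. A plain ratio of at least 2 in both replicates was counted where the numerator lay in the top 15% of its array. A signal below the 75th percentile of its array (6.1 to 6.4) was called dim.

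The text names all 10 listed genes and the 5 genes nearest in profile to Ald1 and to Hex-A. Other genes of sugar use were to be named if they passed the test or were at least 2-fold changed in both replicates, which none was. Those that are named, like the named markers, were singled out after their values were seen. The members and lists were chosen with earlier results of these data known. Alternatives were the block, the pseudocount, the filter, quantile normalization, the trend and each array left out. Gene structure and 3′ UTRs were not analysed here.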

Additional observations from a re-analysis of the deposited data

How the results depend on the processing

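The count of members with plain ratios of at least 2 in both replicates, 2 as measured, was 1 (Ald1) with dim denominators at the 75th percentile of their array, an alternative chosen after seeing the data. The calls in limma depended on the fit. The number of glycolytic probe sets called higher, 1 with the replicate block, was 0 without it and 0 without the variance trend, 2 with 4 times the pseudocount (Ald1 and Hex-A), and 0 to 0 with an array left out. Over all probe sets, 94 were higher and 6 lower. Higher calls fell to 0 without the replicate block, 12 with quantile normalization and 1 without the variance trend, and to 0 with any array left out. Lower calls were 0 without the block, with the top 15% filter, with quantile normalization, without the trend and with any array left out, and 18 with 4 times the pseudocount. With an array left out the fit has no block and 1 residual degree of freedom, and the lone array of a group is assumed to vary like the other group. At an unadjusted p under 0.05, 137 were higher and 38 lower without the block, 232 and 115 without the trend, 241 and 172 with quantile normalization, 214 and 115 with the top 15% filter, and 46 to 226 and 19 to 72 with an array left out.

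The median ratio of the members ran from -0.57 (without total RNA 2) to 0.37 (without total RNA 1) with an array left out, and its sign also turned with quantile normalization (-0.09) and the top 15% filter (-0.03). Uncalled members changed sign: Eno ran from -0.87 to 1.63, Pgk from -0.57 to 0.27, Pfk from -0.58 to 0.37 and Gapdh1 from -0.90 to 0.039 in those fits, and Pgi was -0.15 with quantile normalization. Ald1 was not called without the block, without the trend or with an array left out. Ald1 and Hex-A kept their sign in each setting that tested them, but Hex-A was too dim for the top 15% filter.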

Other observations

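The probe set annotated to both Tpi and CG1607 was assigned to neither gene. Its signals were 23.1 and 7.4 in LARK IP against 15 and 8.6 in total RNA, higher in IP in replicate 1 and lower in replicate 2, with a log2 ratio of 0.20 ± 0.56 (SD, n = 2). Of the sugar carriers, the tested probe set of Glut1, a glucose transporter, read 10.7 and 3.0 in IP against 7.2 and 7.9, where the 3.0 is dim. The other Glut1 probe set was not bright enough to be tested. It read 7.8 and 5.9 in IP against 0.6 and 6.1, dim on 1 IP array and on both total RNA arrays. For sut3 the signals were 2.2 and 2.1 in IP against 0.8 and 1.0, dim on all 4 arrays, so no direction is read from them.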
